A study of Rattus norvegicus with 9 samples.

Results

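The low-in-model probes are the features of an m6A epitranscriptomic microarray whose ratio of immunoprecipitated (IP) to supernatant (Sup) RNA had a lower group mean after cerebral ischemia-reperfusion injury and a higher group mean in injured rats given Buyang Huanwu Decoction (BHD), a traditional herbal formula used after stroke. Of the 32860 probes in the deposited table, 24371 have names that begin with ASRN6AP1B, and 17902 of these had a signal well above background for IP and for Sup on each of the 9 arrays. The members were chosen by these same measurements. They are the 998 detected ASRN6AP1B probes, or 5.57% of 17902, whose mean log2(IP/Sup) was lower in the model than in the control rats and higher in the BHD-treated than in the untreated model rats, each by at least 1.5-fold. The ratio of each array was first centred on its median over all probes, so every value below is relative to the other probes of the same array. Since the rule used both differences, their sizes in these probes are a description and carry no test.

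The samples were ischemic-side cortex of 9 male Sprague Dawley rats, bought at 8 weeks of age, with 1 array per rat and 3 rats in each group. Control rats had the surgery without an embolus and are labelled normal, and the labels count control replicate 1 as 1 of 4 although 3 control arrays were analysed. In model rats a wire plug blocked blood flow to the left middle cerebral artery for 2 h, the vessel was then reperfused, and the cortex was taken on day 7. BHD-treated rats had the same injury and received BHD, with 7 days given in the labels and a dose not given in the sources used here. Cy5 marked the IP RNA and Cy3 the Sup RNA on every array, so dye bias can enter the level of a probe. The dye layout was shared by all groups, but whether the bias was equal on every array was not tested. Signals well above background made up 88.4 to 99.6% of the table probes in the IP channel and 72.7 to 89.8% in the Sup channel, no spot was saturated, and the number of arrays limits the precision.

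N6-methyladenosine, or m6A, is a methyl mark on adenosines inside mRNAs and long noncoding RNAs. A methyltransferase complex with METTL3 and METTL14 writes it, the demethylases FTO and ALKBH5 remove it, and reader proteins such as the YTH family bind it and act on splicing, translation and decay of the RNA. In the brain the mark is abundant on neuronal transcripts. An antibody against m6A pulls methylated RNA into the IP fraction and leaves unmethylated RNA in the supernatant, so a higher IP/Sup ratio of a probe means a larger methylated share of the RNA that hybridizes to it. Neither the files nor the reference tables pair an ASRN6AP1B probe with a gene or a sequence, so the probes are described here by number, level and ID. For the same reason the writers, erasers and readers and the markers of neurons, glia, endothelium and blood could not be matched to probes, and the labelled tissue could not be checked against its markers. In bulk cortex, fewer cells of a type and less RNA per cell cannot be told apart.

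The rats of a group did not contribute equally. The median log2(IP/Sup) of the 998 probes was 1.20 in control rat 1 but 0.00 in control rat 2 and 0.01 in control rat 3. It was 0.24, −0.83 and −0.79 in model rats 1, 2 and 3. In the BHD-treated rats it was 0.81, 0.36 and 0.19. Rat 1 thus had the highest median in each group, and the median of model rat 1 lay above those of control rats 2 and 3. In the other 16904 detected ASRN6AP1B probes the medians lay between −0.13 and −0.04 on every array.

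**Figure D1:**
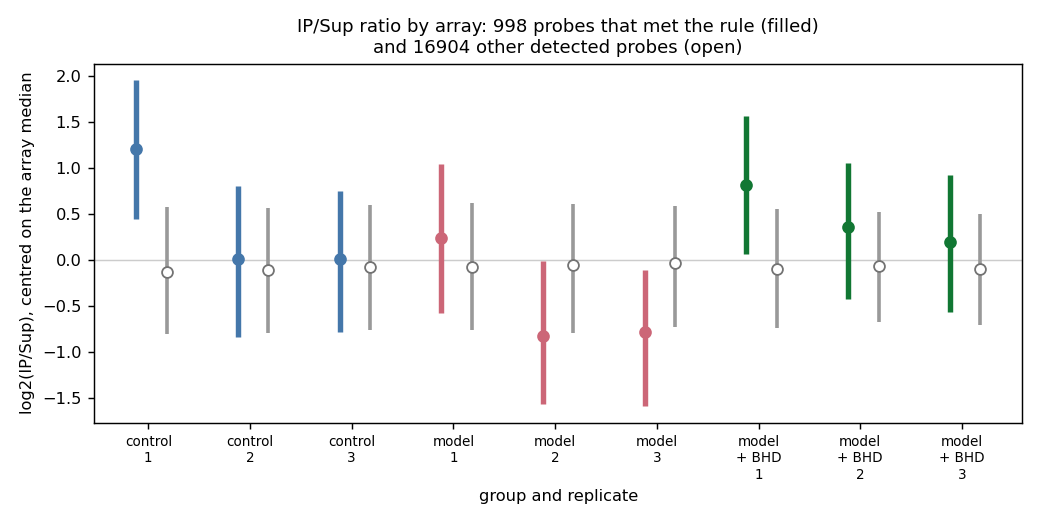
Median log2(IP/Sup), centred on the median of each array, on the y axis for each of the 9 rats on the x axis, with lines from the lower to the upper quartile over probes. Filled points are the 998 low-in-model probes and open points the other 16904 detected ASRN6AP1B probes; control rat 1 stands highest at 1.20, model rats 2 and 3 stand lowest, and model rat 1 lies above control rats 2 and 3.

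Control rat 1 had the highest ratio of its group in 992 of the 998 probes, and in 935, or 93.7%, it was above all other 8 rats. Model rat 1 was the highest of its group in 991 probes and BHD-treated rat 1 in 941. Model rats 2 and 3 were below all control rats in 984 probes and below all BHD-treated rats in 990. Model rat 1, in contrast, was above both control rats 2 and 3 in 771 probes, or 77.3%. The lower group mean of the model rats therefore describes model rats 2 and 3 against all controls, and model rat 1 mainly against control rat 1. The rule used the means of these same arrays, and the same counts over all detected ASRN6AP1B probes are not given here. These orders are a description and carry no test.

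Over the 998 probes the median difference between model and control means was −0.82, with a range from −1.82 to −0.59. The median difference between BHD-treated and untreated model rats was 0.86, with a range from 0.59 to 2.04. For comparison, the median SD of a probe between rats of a group was 0.583 in these probes and 0.288 over all probes tested. At the edge of the rule, the members nearest the threshold for model minus control were at −0.5856, −0.5863 and −0.587, and the nearest probes outside were at −0.5848, −0.5845 and −0.5841. For BHD minus model, the nearest members were at 0.5852, 0.5854 and 0.5854 and the nearest outside at 0.5847, 0.5845 and 0.5842. Within 0.1 of the threshold lay 191 members and 165 non-members for the model difference, and 186 and 159 for the BHD difference, so many probes sat close to the border of the set.

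Of the 1355 detected probes that met the model minus control step, 73.7% also met the BHD minus model step, and of the 1670 that met the latter, 59.8% also met the former. Both steps use the same 3 model arrays with opposite sign, so this overlap is not independent. The opposite pattern, higher in the model and lower with BHD by the same threshold, was found in 141 of the 17902 probes, or 0.788%. In those 141 probes control rat 1 was lowest and model rats 2 and 3 were highest. Their median ratio was −0.97, −0.17 and 0.08 in the control rats, 0.02, 0.54 and 0.56 in the model rats and −0.53, −0.37 and −0.31 in the BHD-treated rats.

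Membership depended on single arrays, and most on control replicate 1. Without control replicate 1, 195 probes met the rule, 194 of them among the 998, and the median model minus control difference of the 998 probes was −0.44. Without model replicate 1, 1963 probes met it, 997 of them members. Leaving out model replicate 2 gave 598 probes with 583 members among them, model replicate 3 gave 577 with 542, and BHD replicate 1 gave 679 with 676. Leaving out control replicate 2 or 3 or BHD replicate 2 or 3 kept 976 to 994 of the members. Of the 998 probes, 126, or 12.6%, stayed past both thresholds whichever single array was left out. When replicate 1 was left out of all 3 groups at once, 1082 probes met the rule and 817 of them were members.

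**Figure D2:**
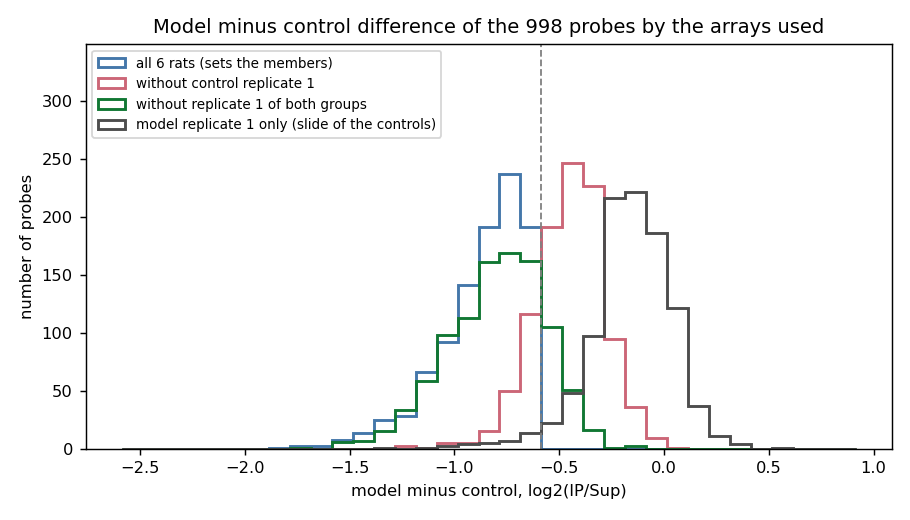
Histogram of the model minus control difference in log2(IP/Sup) on the x axis, with the number of probes on the y axis, for the 998 probes and for different sets of arrays; the dashed line marks the threshold of the rule, a 1.5-fold lower ratio. Without control replicate 1 the median is −0.44, and for model rat 1 alone, against the controls, which had the same scan time, it is −0.15.

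Rats that carry the same replicate number differed in the same direction in nearly all of these probes. Model minus control within numbers had medians of −0.96, −0.75 and −0.80, and the difference was below 0 in all 3 numbered pairs for 986 of the 998 probes, against 26.1% of all detected ASRN6AP1B probes. BHD minus model within numbers had medians of 0.56, 1.07 and 1.02, above 0 in all 3 pairs for 982 probes against 30.8%. Both held in 973 probes, or 97.5%, against 18.9% of the detected probes. The rule chose the probes by the means of these same pairs, which raises these shares but does not fix them. They also depend on which rats are paired, since model rat 1 was above both control rats 2 and 3 in 771 probes. What rats of a number share is not given in the labels or the methods.

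The arrays were grouped by scan time into sets called slides here, and these held the groups unevenly. Whether arrays with the same scan time lay on the same glass slide was not checked. Slide 1 carried the 3 controls and model rat 1, slide 2 carried model rats 2 and 3 with BHD-treated rats 1 and 2, and slide 3 carried BHD-treated rat 3. Within slide 1 the median of model rat 1 minus the controls was −0.15, and 34 of the 998 probes passed the threshold. Within slide 2 the median of BHD-treated rats 1 and 2 minus model rats 2 and 3 was 1.30, and 996 probes passed it. Model rats 2 and 3 minus the controls, which runs across slides, had a median of −1.16. For model rats 2 and 3 the slide and the injury cannot be told apart, since no control rat shared their slide. The rule applied to the differences within slides gave 40 probes, 32 of them members.

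The same rats also stood apart from each other in the probes that did not meet the rule, though not in 1 common direction. Over the 16904 other detected ASRN6AP1B probes, the first principal component of log2(IP/Sup) held 50.1% of the variance and weighted control rats 1, 2 and 3 by 0.59, −0.08 and −0.11, model rats by 0.04, −0.47 and −0.51, and BHD-treated rats by 0.38, 0.10 and 0.06. The members' medians ran in nearly the same order as these weights, from control rat 1 at the top to model rats 2 and 3 at the bottom. The sign of a component is arbitrary, and probes can follow it in either direction. The medians of the other probes did not show this order, at −0.13 in control rat 1 and −0.06 and −0.04 in model rats 2 and 3. Across the same 16904 probes, the excess of rat 1 over the other rats of its group correlated between control and model rats with r = 0.57, between model and BHD-treated rats with r = 0.59 and between control and BHD-treated rats with r = 0.40. These are correlations across probes of the same arrays, which are not independent replicates. What the rats with number 1 share, and its part in the membership, was not tested.

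Which fraction differed was read from each channel, centred in the same way. The median IP signal of the 998 probes was 2.70, 1.93 and 1.93 in the control rats, 2.30, 1.5 and 1.6 in the model rats and 2.84, 2.53 and 2.65 in the BHD-treated rats, in log2 units above the median probe. IP was thus low in model rats 2 and 3 and high in all 3 BHD-treated rats. The median Sup signal was 1.38, 1.89 and 1.92 in the control rats, 1.99, 2.24 and 2.32 in the model rats and 1.92, 2.12 and 2.39 in the BHD-treated rats. Sup was lowest in control rat 1 and lay between 1.92 and 2.39 in all 6 injured rats, treated or not.

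Between model and control rats both fractions differed in the direction of the ratio in most of the probes. The IP signal was lower in 899 of the 998, with a median difference of −0.44, and the Sup signal was higher in 919, with a median of 0.38. Over all detected ASRN6AP1B probes the shares were 52.9% and 40.7%. The rule fixed the direction of the ratio, so at least 1 fraction had to differ with it, and these counts carry no test. In 820 probes both held, and IP had the larger difference in 557, or 55.8%. With BHD, the IP fraction carried most of the difference from untreated model rats. IP was higher in 977 probes with a median of 0.80, while Sup had a median difference of −0.05 and was lower in 568. Over all detected ASRN6AP1B probes IP was higher in 52.4% and Sup lower in 41.8%. IP had the larger difference in 892 probes, or 89.4%.

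**Figure D3:**
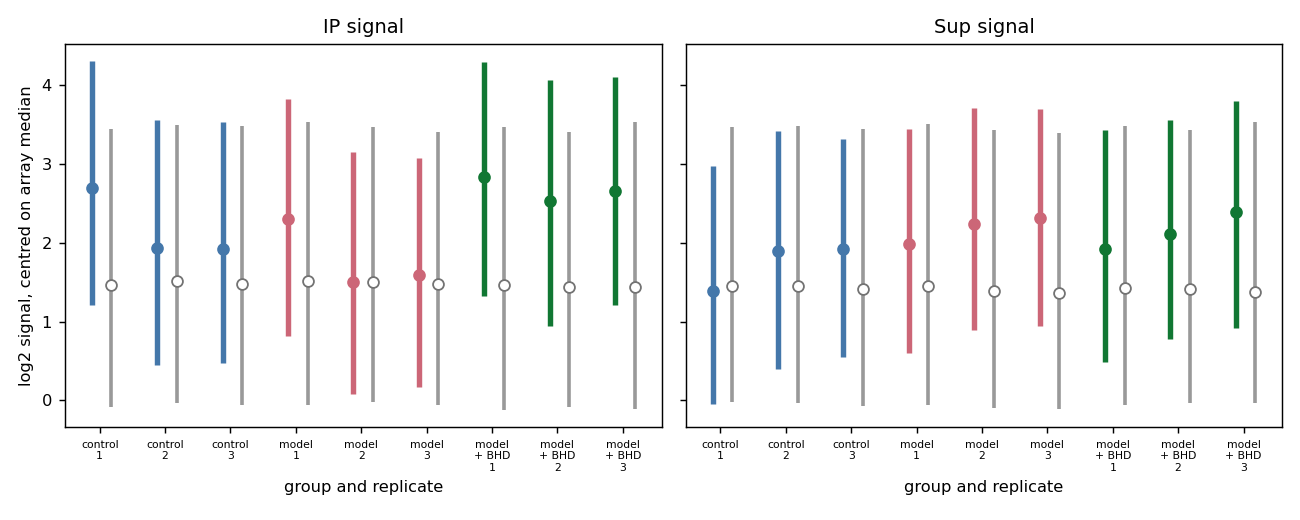
Median log2 signal of the IP channel (left) and the Sup channel (right), each centred on the median of its array and channel, on the y axis for each rat on the x axis, with lines from the lower to the upper quartile over probes. Filled points are the 998 low-in-model probes and open points the other 16904 detected ASRN6AP1B probes; the IP medians of the BHD-treated rats lie between 2.53 and 2.84 and those of model rats 2 and 3 at 1.5 and 1.6, while the Sup median is lowest in control rat 1 at 1.38.

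The BHD-treated rats were compared with the controls directly, a difference that the rule did not name but that uses the same arrays and is the sum of the 2 differences it did. The median difference in log2(IP/Sup) was 0.04, with a range from −0.85 to 0.85. It was under 1.5-fold in either direction in 985 of the 998 probes, or 98.7%, which is near the 97.4% of all detected ASRN6AP1B probes, and was above 0 in 616 and below 0 in 382. The BHD minus model difference was a median of 1.06 times the control minus model difference, with a range from 0.41 to 2.13, and 616 probes reached or passed the control mean. The median depended on control replicate 1, because without it the BHD minus control difference of the 998 probes was 0.43 and 979 of them were above 0. No BHD-treated rat shared a slide with a control, so slide and group cannot be told apart in this comparison.

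The channels of BHD-treated and control rats were further apart than their ratio. IP was higher in the BHD-treated rats in 836 of the 998 probes with a median difference of 0.36, and Sup was higher in 803 with a median of 0.34. Over all detected ASRN6AP1B probes these shares were 46.6% and 50.3%. The summed signal, log2(IP + Sup), differed by a median of 0.32 and was higher in 821 probes. It adds fractions labelled with different dyes and was not checked against the abundance of the RNA. Over all detected ASRN6AP1B probes its median difference was −0.01 and it was higher in 48.6%. Between model and control rats the summed signal of the 998 probes differed by a median of −0.03, and that of BHD-treated minus untreated model rats was 0.36. Without control replicate 1 the BHD minus control medians were 0.60 for IP, 0.18 for Sup and 0.39 for the summed signal. The split between the fractions thus depended on that rat, while the higher summed signal did not.

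Calls from a limma fit of all 32860 probes over the 9 arrays, called at 1.5-fold or more with an unadjusted p below 0.05, give the background for these counts. For BHD-treated against control rats, 0 of the 998 probes were called in log2(IP/Sup), against 2.84% of all probes called higher and 2.07% called lower, and against 1.47% and 0.503% of the detected ASRN6AP1B probes. At an unadjusted p under 0.05 of any size the count was also 0. The rule fixed the signs of the 2 differences whose sum this is. The median SD between rats of a group was 0.583 in members against 0.288 over all probes, so a call needed a larger difference. Nothing is therefore read from the 0. With slide as a block 132 were called and without control replicate 1 84 were called, all of them higher in the BHD-treated rats. Over all probes 1242 and 1550 were called higher with these settings. With the replicate number as a block 4 were called, against 1888 of all probes. No BHD-treated rat shared a slide with a control, so the slide-blocked contrast adds 2 differences. These are BHD-treated rats 1 and 2 minus model rats 2 and 3, and model rat 1 minus the controls. Its link to the controls is model rat 1 alone. The IP signal was called higher in 145 of the 998 probes, or 14.5%, against 6.86% of all probes and 4.9% of the detected ASRN6AP1B probes, and lower in 12, against 4.01% and 4.5%. The Sup signal was called higher in 179, or 17.9%, against 8.94% and 7.25%, and lower in 8, against 6.17% and 6.63%. The summed signal was called higher in 168, or 16.8%, against 7.7% and 5.9%, and lower in 11, against 4.62% and 5.21%. After Benjamini-Hochberg adjustment 1 of the 998 was called in Sup and 0 in IP or in the summed signal. The rule chose the probes by the signals of these same arrays, so the shares are a description and carry no test.

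For the differences that the rule used, 257 of the 998 probes, or 25.8%, were called lower in model than in control rats, against 3.52% of all probes and 2.39% of the detected ASRN6AP1B probes. For BHD-treated against untreated model rats, 382 of the 998, or 38.3%, were called higher, against 6.24% and 4.7%. Members had to pass the size threshold to be members, so nothing is read from these counts. With the replicate number as a block, 963 and 981 of the 998 were called, against 2408 lower and 3123 higher of all probes. With the slide as a block 3 and 915 were called, against 283 lower and 3735 higher of all probes. Nothing is read from these counts either. No probe of the set passed Benjamini-Hochberg adjustment in limma in any of the 3 ratio comparisons, where the share of all probes called was 0% for model against control, 0% for BHD against model and 0.00609% for BHD against control. The smallest adjusted p of a member was 0.535, 0.322 and 0.737 in that order. The p-values measure the spread between 3 rats per group.

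The values of single rats overlapped between the groups in most probes. All model rats were below all control rats in 47 of the 998 probes, against 5.05% of all probes and 3.59% of the detected ASRN6AP1B probes. All BHD-treated rats were above all model rats in 346, against 11.4% and 10.5%. Both held in 30, against 1.65% and 1.11%. All BHD-treated rats were above all controls in 1 probe, against 6.26% and 5.51%, and below all controls in 0, against 5.5% and 4.97%. In the 30 probes with full separation the median ratio was 0.80, −0.28 and −0.34 in the control rats, −0.61, −1.21 and −0.97 in the model rats and 0.31, −0.20 and −0.06 in the BHD-treated rats. Control rat 1 stood apart from its group here too. Of these 30, 10 were past both thresholds after loess normalization and 11 with any single array left out.

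The rats were also ordered unevenly in the single probes with the largest differences. ASRN6AP1B10000158911, the member with the lowest model minus control difference, had a log2(IP/Sup) of 0.80, −1.16 and −0.91 in the control rats, −1.55, −2.92 and −2.27 in the model rats and −0.60, −0.97 and −1.22 in the BHD-treated rats. All of its model rats were below all rats of both other groups. The model minus control difference was −1.82 ± 0.52 (SE of the limma fit, n = 3 per group), with an adjusted p of 0.535, and −1.21 without control replicate 1. Its IP signal differed by −1.81 and its Sup signal by −0.02, and after loess normalization the ratio differed by −0.41.

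ASRN6AP1B10537113511, next in rank, had ratios of 1.41, −2.11 and −1.85 in the control rats, −1.31, −3.15 and −3.34 in the model rats and 0.36, −0.77 and −1.25 in the BHD-treated rats. Control rat 1 was more than 3 log2 units above the other controls, and model rat 1 was above both of them. The model minus control difference of −1.75 ± 0.93 (SE, n = 3 per group) was −0.61 without control replicate 1. Its BHD minus model difference of 2.04 was the highest of the set, and it was 1.17 after loess normalization. Mean IP was higher by 0.80 and mean Sup lower by 1.20. In BHD-treated rat 3, however, IP was −1.70, below all model rats. Sup in that rat was −0.48, against 1.40 and 1.89 in BHD-treated rats 1 and 2.

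ASRN6AP1B10744386111 had the highest BHD minus model difference apart from that probe, 2.00 ± 0.83 (SE of the limma fit, n = 3 per group), with an adjusted p of 0.323. Its ratio was 0.18, −3.30 and −2.68 in the control rats, −2.24, −4.13 and −3.78 in the model rats and −0.93, −1.66 and −1.56 in the BHD-treated rats. The BHD-treated and model rats did not overlap, and the BHD-treated rats lay between control rat 1 and the other controls. Its IP signal was higher by 1.61 and its Sup signal lower by 0.34 than in untreated model rats, and after loess normalization its ratio differed by 0.87. ASRN6AP1B10007508411 followed with 1.92 ± 0.77 (SE, n = 3 per group), from ratios of −1.12, −2.54 and −3.22 in the model rats and 0.24, −0.59 and −0.77 in the BHD-treated rats, which again did not overlap. Its control rats were at 0.89, −2.03 and −1.66, so model rat 1 lay above control rats 2 and 3. After loess normalization its BHD minus model difference was 0.68 and its model minus control difference −0.42, which is short of the threshold, as it was for ASRN6AP1B10000158911.

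**Figure D4:**
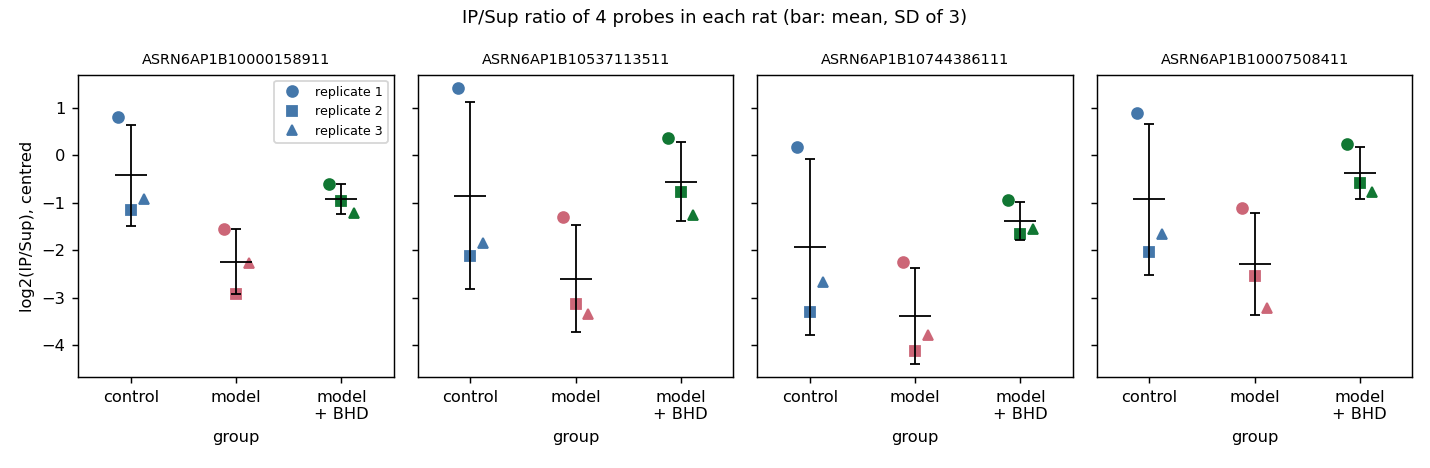
log2(IP/Sup), centred on the median of each array, on the y axis for the 4 probes named in the text, for each group on the x axis, with 1 point per rat, shaped by replicate number, and bars for the mean and SD of the 3 rats. In each panel control rat 1 lies far above the other control rats, by 1.71 to 3.52.

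The 2 brightest members had smaller differences. For the brightest, the ratio was 0.77, −0.28 and 0.05 in the control rats, 0.03, −0.96 and −0.98 in the model rats and 0.65, −0.04 and −0.22 in the BHD-treated rats, and its group means differed by −0.81 and 0.76. The next brightest had ratios of −1.26, −2.56 and −2.49, then −2.25, −2.97 and −3.11, then −1.59, −2.33 and −2.48 in the same order of groups, with differences of −0.67 and 0.64. In both, model rat 1 lay between control rat 1 and at least 1 of the other control rats, as in the set as a whole.

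The low-in-model probes were brighter than the other detected ASRN6AP1B probes, with a median of the mean log2(IP + Sup) of 2.76 against 2.12. The control ratio is a value the rule used, and its median was 0.43 in members against −0.11 in the others. That gap lay mostly in control rat 1, since the medians in control rats 2 and 3 were 0.00 and 0.01 in members against −0.11 and −0.08 in the others. Divided into 10 equal bins by summed signal, the share of detected probes that were members was 1.73% in the dimmest bin, 8.38% in bin 8 and 3.24% in the brightest. Divided by the control ratio, the share was between 3.57% and 4.02% in the lower 6 bins and 10.1% and 9.94% in the highest 2. Over the surface of the array the members were spread, with shares of 5.08 to 6.17% across the eighths of the rows and 3.99 to 7.25% across the eighths of the columns. The scanner software had marked a spot as an outlier on at least 1 array in 222 members, or 22.2%, against 7.77% of the other detected ASRN6AP1B probes, and 449 of the members' spots were marked. With the marked spots left out, 871 probes met the rule and 856 of them were members. The part of these spots in the membership was not tested further.

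**Figure D5:**
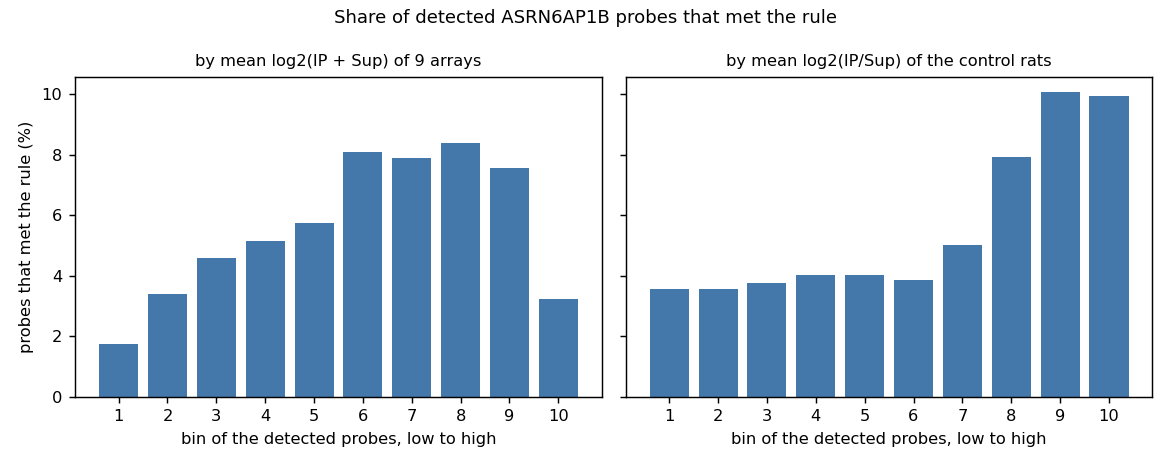
Share of the 17902 detected ASRN6AP1B probes that met the rule, in percent on the y axis, in 10 equal bins of mean summed signal and of the control ratio on the x axis. The share is highest in bin 8 of signal at 8.38% and in the upper 2 bins of the control ratio at 10.1% and 9.94%.

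The same rule was applied to the other probe classes, which the names alone define. It was met by 36 of 1600 detected ASRN6AP1A probes (2.25%), 50 of 1616 ASRNV probes (3.09%), 52 of 1240 ASRN6SM probes (4.19%) and 10 of 182 probes whose names begin with uc. (5.49%), against 5.57% of the ASRN6AP1B probes. The opposite pattern was met by 1.13%, 1.24%, 0.0806% and 0.549% of them in that order. The shares were not tested against each other, since probes of an array are not independent samples.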

How the data were processed

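The authors extracted the arrays with Agilent Feature Extraction 11.0.1.1 and normalized them with GeneSpring per the study's methods. The deposited table holds log2 signals of IP (Cy5) and Sup (Cy3) for 32860 probes, and each column equals log2 of the scanner's processed intensity minus 1 constant. The deposited scanner files also hold median spot and background intensities, which are not normalized, with flags for background and outliers. All sample columns were used, and 0 were left unread.

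From there, log2(IP/Sup) was centred on each array's median, which moved the median of all probes by 0.29 for model minus control. limma 3.58.1 in R 4.3.3 (lmFit, eBayes) was fitted on all 32860 probes, all of which passed the signal filter (IP or Sup above background by the scanner's flag on 3 or more arrays). Python 3.11.15, pandas 2.3.3 and matplotlib 3.10.9 made the tables and figures. The fit was tested on simulated data. Their noise was independent between arrays, so that test does not cover variation that arrays share. Alternatives covered normexp (offset 50) with loess of the median intensities, outlier spots, centring, signal filters, the threshold, the test, the replicate number or slide as a block, and each array left out. The probes named are the 2 members with the lowest model minus control difference, the next 2 by BHD minus model difference and the 2 brightest, whose IDs are not printed. The members, lists and rules were chosen with earlier results of these data known.

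To check for pairing, each array was set against the mean of its group, and the deviations of arrays with the same number had a correlation over probes of 0.50, 0.23 and 0.20 for control and model rats and 0.38, 0.12 and 0.20 for model and BHD-treated rats, each above 0.1. Arrays of different numbers could correlate as much, with 0.21 for control 2 and model 3 and 0.15 for control 3 and model 2, so the check did not tell numbers 2 and 3 apart between control and model rats. By the limit of 0.1 a fit with the number as a block was run as an alternative, and its counts are given beside the results. The calls, SEs and adjusted p-values are otherwise from the fit without a block. For control and BHD-treated rats r was 0.28, 0.10 and 0.07.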

Additional observations from a re-analysis of the deposited data

How the results depend on the processing

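The number of probes that met the rule was 998. It was 414 after normexp and loess of the scanner intensities, 396 of them members, 174 at a log2 threshold of 1 and 40 with differences within slides, and between 195 and 1963 with 1 array left out. With a replicate number left out of all groups, an alternative chosen after seeing the data, it was 939 to 1082. With number 1, 2 or 3 left out in this way, members called were 781, 33 and 50 for model against control, 969, 15 and 42 for BHD against model and 123, 0 and 1 for BHD against control, and all probes called were 3177, 892 and 1835, then 6124, 1373 and 1862, then 3438, 1163 and 1318. After loess the model minus control difference of the 998 probes had a median of −0.58 and was below 0 in 994, and the BHD minus model difference a median of 0.61 and above 0 in 998. Loess moved single arrays unequally. The members' median in model rats 1, 2 and 3 was 0.20, −0.23 and −0.53 after loess, against 0.24, −0.83 and −0.79 before. Without centring, the median of all probes was −0.29 for model minus control and −0.32 for BHD minus control, the members' medians were −1.11 and −0.28, and 1284 probes met the rule.

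Members called lower in model than in control rats (257) numbered 106 after loess, 845 without centring, 492 among probes detected everywhere, 74 at a threshold of 1, 118 with only the groups compared, 41 without moderation of the variance, 0 after adjustment and 3 with the slide as a block. Leaving out 1 array gave 17 to 876. Members called higher with BHD (382) numbered 185, 210, 615, 196, 638, 68, 0 and 915 in that order of settings, and 33 to 926 with 1 array left out. Members called between BHD-treated and control rats (0) numbered 2 without centring, 1 with only the groups compared and 132 with the slide as a block, and 0 to 84 with 1 array left out, 84 of them without control replicate 1.

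With the replicate number as a block, members called were 963, 981 and 4, and all probes called were 3343, 4684 and 1888.

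Over all probes, 1815 (658 higher, 1157 lower) were called for model against control. This was 301 after loess, 4748 without centring (110 higher, 4638 lower), 1167 among probes detected everywhere, 549 at a threshold of 1, 863 without moderation, 0 after adjustment (2677 at an unadjusted p under 0.05 in limma), 727 with the slide block and 833 to 4926 with 1 array left out. For BHD against model, 3409 (2051 higher, 1358 lower) were called, 903 after loess (425 higher, 478 lower), 1099 at a threshold of 1, 1943 without moderation, 0 after adjustment (5035 at an unadjusted p under 0.05), 5857 with the slide block and 1662 to 6013 with 1 array left out. For BHD against control, 1613 (932 higher, 681 lower) were called, 290 after loess (208 higher, 82 lower), 3279 without centring (245 higher, 3034 lower), 586 among probes detected everywhere, 546 at a threshold of 1, 1019 without moderation, 2 after adjustment and 1244 to 2770 with 1 array left out. With only the groups compared, the counts over all probes were 1614, 3988 and 1545 in that order of comparisons. BHD against model had 2866 calls without centring and 2352 among probes detected everywhere, and BHD against control 1858 with the slide block. The cause of these changes was not tested. The median BHD minus control difference of the members was −0.16 to 0.43 with 1 array left out, and its direction followed the array removed.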
